A study of Mus musculus with 6 samples.

Results

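Transcript levels of 40 genes of the actin cytoskeleton and of focal adhesions were examined in mouse liver, out of 22068 gene symbols measured. The 40 genes were chosen by name for their function, with earlier results of these data known. They cover actins, non-muscle myosins, tropomyosins, calponins, filament crosslinkers, focal adhesion proteins, filament-severing and monomer-binding proteins, and the ezrin, radixin and moesin family. Of these, 39 stood in the files under their current symbol, and Myl12a stood under its older symbol, 2900073G15Rik. The dKO group held 3 liver libraries of Mst1-/-; Mst2fl/fl mice homozygous for an albumin-Cre transgene (alb-Cre+/+). The control group held 3 liver libraries of Mst1-/-; Mst2fl/fl mice without that transgene (alb-Cre-/-). All mice were C57BL/6 and 6 weeks old, so both groups lacked Mst1, and the comparison asked what changed when Cre was also present to delete Mst2. The albumin promoter is active in hepatocytes and in their embryonic progenitors, and which cells had recombined was not measured. The labels number the replicates but do not say that each came from its own animal, and the p-values therefore describe only how far these libraries spread, which may be technical.

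Actin filaments, together with non-muscle myosin II, carry the tension of a cell. Focal adhesions tie those filaments to the matrix through integrins, with talin, vinculin and zyxin between integrin and filament. Mst1 and Mst2 are Hippo pathway kinases that restrain the coactivators YAP and TAZ, whose activity depends on filament assembly and tension, and several cytoskeletal genes are known targets of YAP or of the actin-responsive transcription factor SRF. In hepatocytes, filaments are dense under the bile canaliculus, where ezrin-family proteins link them to the membrane.

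The deposited values were read as RPKM, reads scaled to transcript length and to library depth, so levels of different genes can be set side by side. Depth was estimated from the step size of low values, at 20.7 to 24.05 M reads in dKO and 17.05 to 24.5 M reads in control libraries. The hepatocyte gene Alb stood at 34100 to 37800 RPKM in dKO and 36200 to 47000 RPKM in control libraries, which fits the labelled tissue. Stk3, the mouse gene for Mst2, measured 4.25 to 5.32 RPKM in dKO and 5.2 to 6 RPKM in control libraries. Stk4, the gene for Mst1, measured 4.93 to 5.84 RPKM in dKO and 4.66 to 5.5 RPKM in control libraries. Since a deleted exon cannot be seen in a gene-level value, these levels did not check the genotype. On the first principal component of the tested genes, which held 67.3% of the variance, dKO replicate 3 lay at -49.0, dKO replicates 1 and 2 at -20.3 and -19.2, and the controls between 25.4 and 35.7.

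Most of these genes stood higher in dKO liver, with the myosin II heavy chains, the adaptor Sorbs2 and gelsolin in front. Of the 40 members, 37 averaged 1 RPKM or more over the libraries and entered the limma test, and Tpm2, Cnn1 and Vil1 did not. With a Benjamini-Hochberg adjusted p under 0.05 over all 11062 tested genes, 16 were called higher, which is 43.2% of those tested, against 17.8% of all tested genes (19.9% in either direction). No member was called lower, where 2.17% of all tested genes were, and at an unadjusted limma p under 0.05 25 members were higher and 0 lower, where 3647 of the 11062 tested genes were higher and 543 lower. The tested members had a median log2 change of 0.62 (dKO minus control, on values of log2(RPKM + 1)), against 0.23 for all tested genes, and 36 of the 37 differences were positive, as were 8420 of the 11062 over all tested genes. In 24 members every dKO library lay above every control library, a pattern held by 38.3% of all tested genes, and in 0 members every dKO library lay below, against 6.73%. Since the members were chosen with earlier results known, their counts beside those of all tested genes describe the group and do not test it. The members that rose were Myh9, Myh10, Myh14, Myl12a, Myl12b, Mylk, Tagln2, Actn4, Flna, Vcl, Zyx, Tln1, Sorbs2, Pdlim1, Gsn and Ezr. In bulk tissue, more or fewer cells of a type and more or less RNA per cell cannot be told apart.

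The shift of the median of all tested genes to higher values in dKO libraries touched these counts. After median-ratio scaling, which moved the median log2 change of all tested genes to -0.01, 10 members were higher and 0 lower, the member median was 0.35, and all tested genes split into 873 higher and 614 lower, against 1965 higher and 240 lower without that scaling. Without control replicate 1 there were 8 higher members (21.6%, against 6.84% of all tested genes), and without control replicate 3 there were 10 (27.0%, against 8.59%). Without dKO replicate 3 there were 12 (32.4%, against 9.10%). Calls of 7 members, Myh9, Myh10, Myh14, Myl12b, Mylk, Sorbs2 and Gsn, held in all 14 alternatives that kept the threshold of 0.05.

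**Figure D1:**
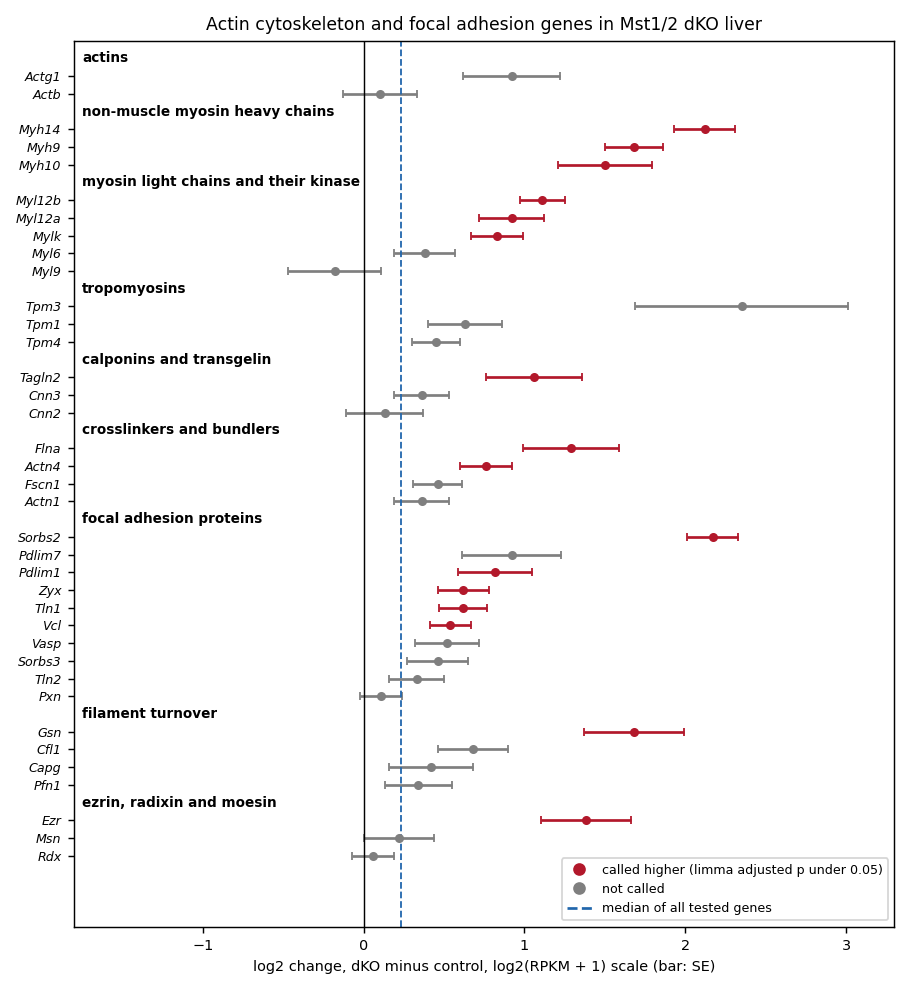
Difference in log2(RPKM + 1), dKO minus control, of the 37 tested members grouped by role, with bars for the standard error, red for the 16 members called higher and grey for those not called. The dashed line marks the median of all tested genes (0.23), and the 3 myosin heavy chains, Sorbs2 and Gsn lie farthest to its right among the called members.

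**Figure D2:**
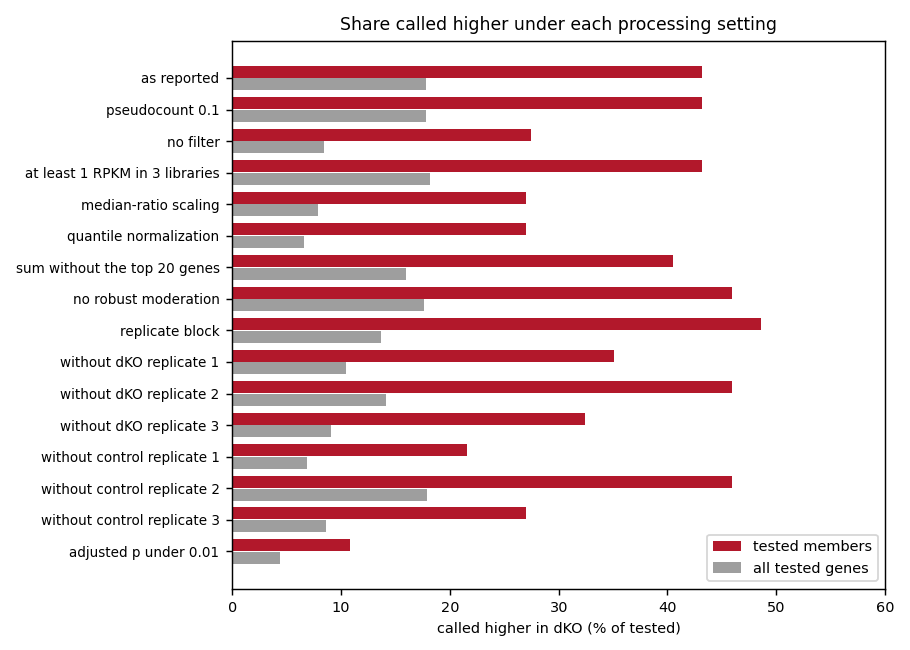
Share of the tested members (red) and of all tested genes (grey) called higher in dKO liver under each processing setting. The share of members runs from 10.8% at an adjusted p under 0.01 to 48.6% with a replicate block, and lies above that of all tested genes at each setting.

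Promoter sequences of RefSeq (GRCm38.p6), 250 bases before to 50 after a start site, were found for 36 of the 40 members, 43 promoters in all. They were searched on both strands for GGAATG, the core that TEAD factors, the DNA-binding partners of YAP, are known to bind, and for the CArG box, the site of SRF, and in no member did a match of one overlap a match of the other. GGAATG was held by 7 of the 20 promoters of members called higher (35.0%), by 2 of the 20 promoters of members tested and not called (10%, Tpm1 and Pfn1) and by 14.7% of all 32851 promoters. A CArG box was held by 6 of the 43 member promoters (14%), against 1.63% of all promoters, but by 1 of the 20 promoters of called members (5%) and 4 of the 20 of members not called (20%). Of the 7 called genes with GGAATG, Myh10 and Mylk were called in all 14 alternatives that kept the threshold of 0.05. The calls of Tagln2, Actn4, Vcl, Myl12a and Flna were lost in some of them. The split into called and not called members, and with it these shares, thus depends on the processing. These are counts of letters in a short window, with no test and no measure of binding.

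The stretches of the called members that hold GGAATG upstream of the start site are shown 5′ to 3′ on the strand of the gene with up to 25 bases either side, ending at the start site at the latest, the motif or its reverse complement in capitals, since these genes rose in dKO liver.
Tagln2, chr1:172500103-172500158, plus strand: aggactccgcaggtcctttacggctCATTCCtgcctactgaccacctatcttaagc
Tagln2, chr1:172500141-172500196, plus strand: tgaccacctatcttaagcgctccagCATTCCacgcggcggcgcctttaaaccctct
Actn4, chr7:28962518-28962573, minus strand: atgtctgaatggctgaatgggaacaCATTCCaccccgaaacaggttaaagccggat
Myh10, chr11:68691883-68691914, plus strand: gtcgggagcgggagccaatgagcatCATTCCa
Vcl, chr14:20929230-20929285, plus strand: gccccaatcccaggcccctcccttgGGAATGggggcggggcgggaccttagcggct
Mylk, chr16:34784767-34784822, plus strand: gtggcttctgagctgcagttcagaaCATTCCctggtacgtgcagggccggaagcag
Flna, chrX:74246650-74246705, minus strand: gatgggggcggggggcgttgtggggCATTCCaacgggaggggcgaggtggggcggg
The match in the Myl12a promoter lay 28 bases into the transcribed part and is not shown.

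The CArG boxes of the members are shown in the same way, with the box in capitals, because most of them belong to genes whose levels were not called different.
Actg1, chr11:120348551-120348610, minus strand: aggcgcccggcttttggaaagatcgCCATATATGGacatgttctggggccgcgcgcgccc
Myl6, chr10:128493025-128493084, minus strand: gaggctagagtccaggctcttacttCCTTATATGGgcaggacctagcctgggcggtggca
Myl9, chr2:156775278-156775337, plus strand: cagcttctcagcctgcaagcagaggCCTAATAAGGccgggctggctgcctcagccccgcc
Cnn2, chr10:79988519-79988578, plus strand: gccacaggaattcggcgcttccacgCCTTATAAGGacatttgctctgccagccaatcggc
Vil1, chr1:74409286-74409345, plus strand: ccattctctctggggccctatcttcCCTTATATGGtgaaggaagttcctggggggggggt
Vcl, chr14:20929148-20929205, plus strand: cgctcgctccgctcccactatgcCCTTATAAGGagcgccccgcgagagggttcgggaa
Of these 6 genes, Vcl was called higher, Actg1, Myl6, Myl9 and Cnn2 were tested and not called, and Vil1 was below the filter.

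The 3 heavy chains of non-muscle myosin II, the motor that slides actin filaments past each other, all rose. Myh9, the heavy chain of myosin IIA, measured 98.5, 98.1 and 143 RPKM in dKO replicates 1, 2 and 3, against 31.2, 36.5 and 35 RPKM in control replicates 1, 2 and 3. No dKO library came near the control range, and the mean was 3.31-fold higher (113 ± 26.0 in dKO and 34.2 ± 2.71 RPKM in control, SD, n = 3 each). Its log2 change was 1.68 ± 0.18 (SE) and limma gave an adjusted p of 0.00121. Myh14, the heavy chain of myosin IIC, measured 18.1, 18.2 and 25.1 RPKM in dKO, against 2.85, 4.49 and 4.48 RPKM in control libraries. That was the largest fold among the called members, 5.20, with a log2 change of 2.12 ± 0.19 (SE) and a limma adjusted p of 0.000607. Myh10, the heavy chain of myosin IIB, was the scarcest of the trio, with 7.61, 6.57 and 13.9 RPKM in dKO and 1.52, 3.25 and 3.02 RPKM in control libraries. The groups did not overlap, dKO replicate 3 stood at 1.96 times the mean of the other dKO libraries, and the log2 change was 1.5 ± 0.29 (SE) and limma gave an adjusted p of 0.014.

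The summed level of the 3 heavy chains was 124, 123 and 182 RPKM in dKO libraries, against 35.6, 44.2 and 42.5 RPKM in control libraries. Myh9 made up most of this sum in both groups, with 79.2% ± 0.594 in dKO and 84.2% ± 3.06 in control libraries (SD, n = 3 each). Myh14 supplied 14.6%, 14.8% and 13.8% in dKO, against 8.01%, 10.2% and 10.5% in control libraries. The Myh14 share was thus larger in each dKO library than in any control library, while that of Myh10 overlapped (5.35% to 7.63% in dKO and 4.27% to 7.34% in control). These shares carry no test, since 3 libraries against 3 cannot reach an exact permutation p below 0.1.

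The regulatory light chains, whose phosphorylation switches myosin II on, split by gene. Myl12b measured 54.5, 54 and 66.1 RPKM in dKO, against 23.8, 29.1 and 26.3 RPKM in control libraries. Its near relative Myl12a measured 34.7, 32.5 and 52.5 RPKM in dKO, against 19.7, 24.3 and 17.1 RPKM in control libraries. Both genes were clear of the control range in each dKO library, with log2 changes of 1.11 ± 0.14 (SE) for Myl12b and 0.92 ± 0.20 (SE) for Myl12a and limma adjusted p of 0.00283 and 0.019. Myl9, the regulatory light chain best known from smooth muscle, did not differ detectably, with 3.63, 1.6 and 5.15 RPKM in dKO and 3.57, 4.26 and 3.48 RPKM in control libraries (log2 change -0.18 ± 0.29, limma adjusted p = 0.665, and 0.17 without dKO replicate 2). Myl9 accounted for 3.91%, 1.82% and 4.16% of the summed regulatory light chains in dKO, against 7.58%, 7.39% and 7.41% in control libraries, so its share was lower in each dKO library.

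Mylk, the kinase that phosphorylates these light chains, measured 19.3, 20.2 and 28.8 RPKM in dKO, against 11.8, 12.2 and 12.5 RPKM in control libraries. The control libraries were tight and all dKO libraries lay above them, with a log2 change of 0.83 ± 0.16 (SE) and a limma adjusted p of 0.0113. Myl6, the essential light chain, stood at 11.1 ± 3.00 RPKM in dKO and 8.21 ± 1.26 RPKM in control (SD, n = 3 each), with overlapping groups and a limma adjusted p of 0.184. The call of Myl12a was lost without control replicate 1 (limma adjusted p = 0.0691) or control replicate 3 (0.0649) and under quantile normalization (0.0508), in a range of 0.0167 to 0.0691 over 14 alternatives. Myl12a and Myl12b matched each other over at least 300 bases at 95% identity or more in the GENCODE M21 transcripts, so the authors' counting could have moved reads between them. In the same way Myl6 matched 5 annotated pseudogenes, Cnn3 matched 2, and Myl12a, Myl12b, Tpm4, Pdlim1 and Cfl1 matched 1 each, which makes their levels uncertain.

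**Figure D3:**
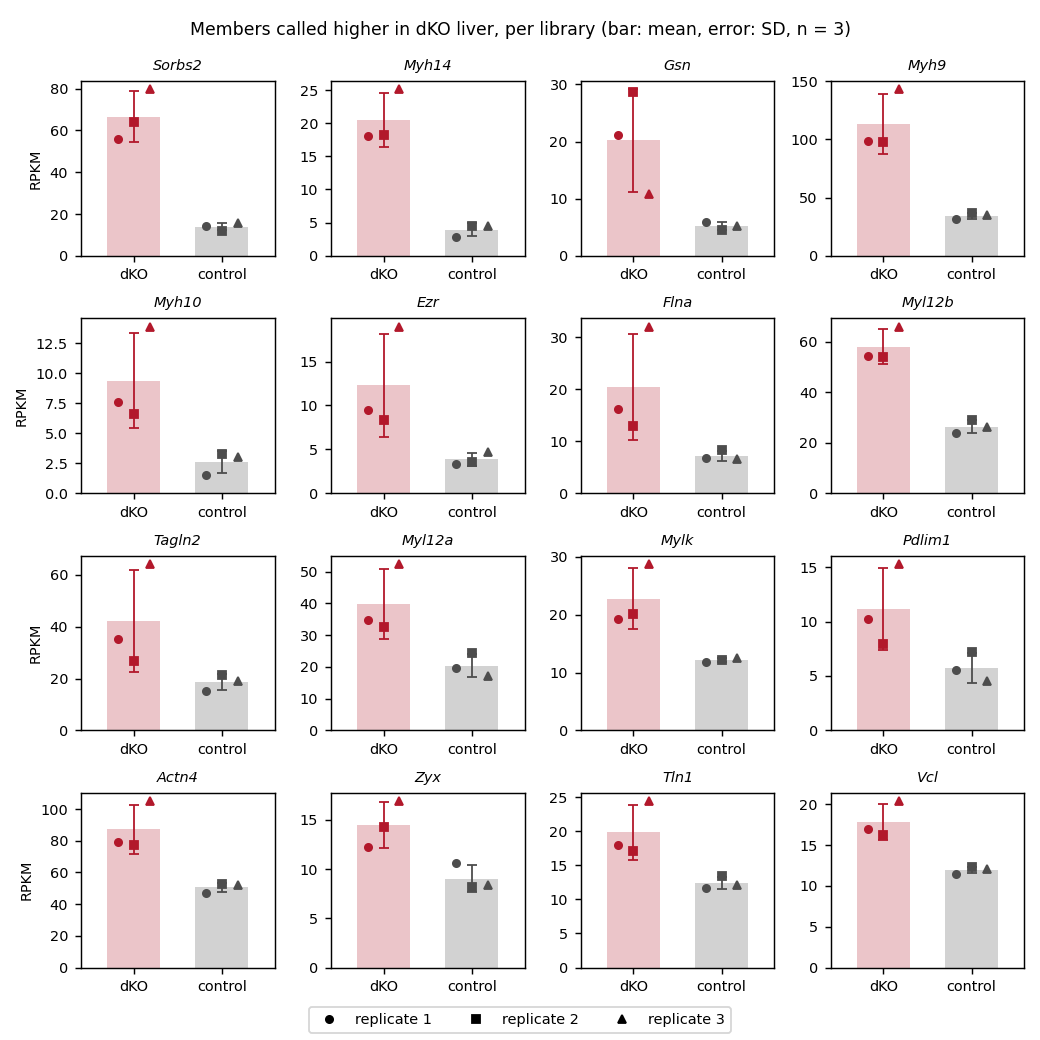
RPKM of the 16 members called higher, one panel per gene with its own linear axis from 0, dKO left of control, with points for replicates 1 to 3, bars for the mean and error bars for the SD (n = 3). In each panel all dKO points lie above all control points, and dKO replicate 3 is the highest point in every panel but that of Gsn, where it is the lowest dKO point at 10.8 RPKM.

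Neither cytoplasmic actin gene was called different. Actb was the most abundant member, with 602, 540 and 525 RPKM in dKO, against 471, 712 and 414 RPKM in control libraries. Control replicate 2 held the highest value of all, the groups overlapped, and the log2 change of 0.10 ± 0.23 (SE; limma adjusted p = 0.771) turned to -0.19 after median-ratio scaling. Actg1, the other cytoplasmic actin, measured 9.68, 8.12 and 20.8 RPKM in dKO, against 6.03, 5.63 and 5.7 RPKM in control libraries. Every dKO library was above every control library, but the log2 change of 0.92 ± 0.30 (SE) missed the threshold (limma adjusted p = 0.0636). It passed without dKO replicate 2 (0.0343) or dKO replicate 3 (0.0417) and with a replicate block (0.0471), within a range of 0.0343 to 0.15 over 14 alternatives. Actg1 supplied 1.58%, 1.48% and 3.81% of the summed actins in dKO and 1.26%, 0.785% and 1.36% in control libraries. Its transcript matched 6 annotated pseudogenes at 95% identity or more over at least 300 bases and that of Actb matched none, so the level of Actg1 and its share are uncertain.

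Tropomyosins, coiled-coil proteins that lie along the filament and set which other proteins bind it, were not called, although 3 of them had an unadjusted limma p under 0.05. Among all tested members Tpm3 showed the largest log2 difference and the widest spread, with 15.5, 16.8 and 43.9 RPKM in dKO, against 2.16, 1.77 and 10.3 RPKM in control libraries. The groups did not overlap, yet control replicate 3 was several times the other controls, and the log2 change of 2.35 ± 0.66 (SE) had a limma adjusted p of 0.0576. Without control replicate 3 the log2 change was 3.00 and passed the limma test (adjusted p = 0.0158), and the adjusted p ran from 0.000109 to 0.154 over 14 alternatives. Tpm1 measured 32.4, 22.9 and 46.6 RPKM in dKO, against 19.4, 22.2 and 20.6 RPKM in control libraries, with a limma adjusted p of 0.0814 (0.0235 without dKO replicate 2, range 0.0235 to 0.236). Tpm4 stood at 17.3 ± 2.78 RPKM in dKO and 12.3 ± 1.61 RPKM in control (SD, n = 3 each; limma adjusted p = 0.0655). In dKO libraries Tpm3 made up 23.5%, 30.7% and 39.2% of the summed tropomyosins, against 6.16%, 5.07% and 23% in control libraries, so the share of control replicate 3 nearly reached that of dKO replicate 1. Tpm2, known from muscle, stayed under the filter at 0.402 to 1.31 RPKM in dKO and 0.319 to 0.66 RPKM in control libraries. The Tpm3 transcript matched 1 other protein-coding gene at 95% identity or more over at least 300 bases, Tpm3-rs7, so its level is uncertain.

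**Figure D4:**
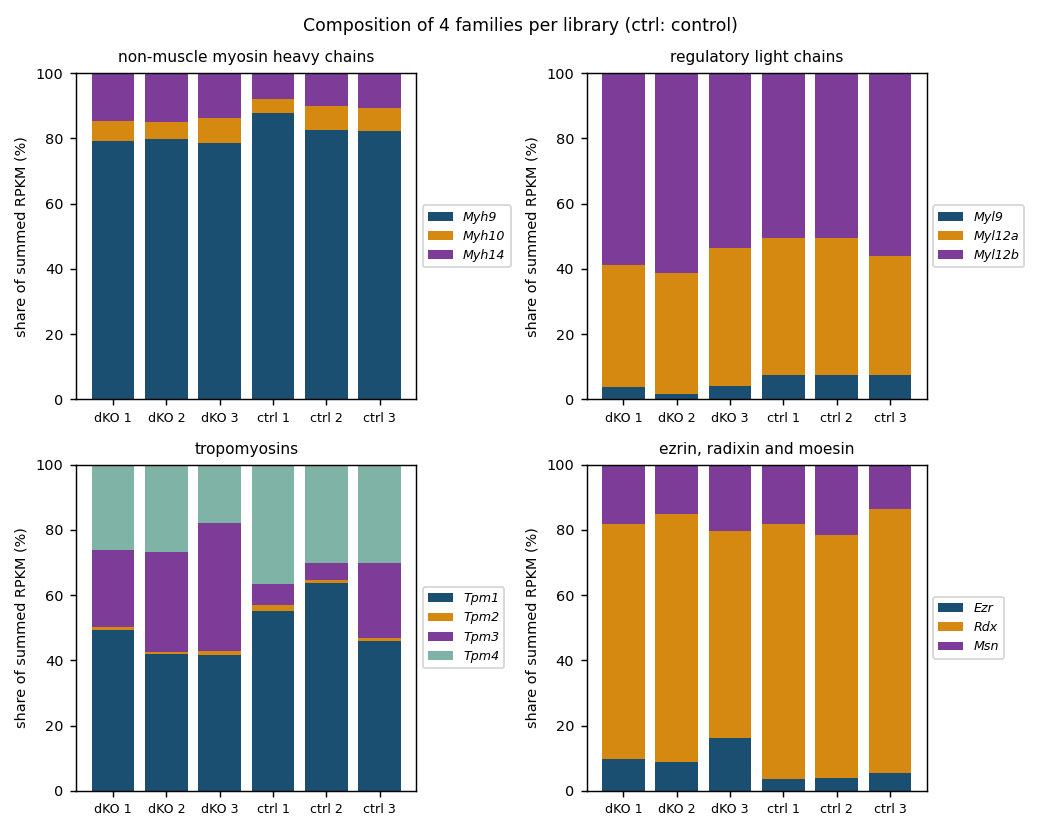
Share of each gene in the summed RPKM of its family, in percent, for 4 families, with dKO libraries left of control libraries. Myh14 holds 13.8% to 14.8% of the myosin heavy chains in dKO and 8.01% to 10.5% in control libraries, and Ezr 8.67% to 16.2% of its family in dKO and 3.54% to 5.44% in control libraries.

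Of the calponin and transgelin group, which bind along filaments, Tagln2 was called. It measured 35.2, 26.8 and 64.3 RPKM in dKO, against 15.2, 21.3 and 19.2 RPKM in control libraries. The groups did not overlap, dKO replicate 3 stood at 2.07 times the mean of the other dKO libraries, and the log2 change was 1.06 ± 0.30 (SE) and limma gave an adjusted p of 0.0442. The call was the least stable of the 16 and was kept in 5 of 14 alternatives (limma adjusted p from 0.0216 to 0.137). It was lost without dKO replicate 1 (0.0829) or 3 (0.0565) and without control replicate 1 (0.137), 2 (0.0666) or 3 (0.0974), after median-ratio scaling (0.0727), quantile normalization (0.0931) or scaling with the 20 most abundant genes left out (0.0509), and with no filter (0.0784). Cnn3 was the main calponin, with 42.8 ± 5.84 RPKM in dKO and 33.3 ± 6.72 RPKM in control (SD, n = 3 each), and overlapping groups (limma adjusted p = 0.158, and 0.0465 without control replicate 2, range 0.0465 to 0.733). Cnn2 stood at 5.66 ± 2.45 RPKM in dKO and 4.89 ± 0.796 RPKM in control, with a log2 change of 0.13 that was -0.12 after median-ratio scaling and -0.16 without dKO replicate 3. Cnn1, a smooth muscle calponin, was listed at 0 in all dKO libraries and at 0.058, 0.02 and 0 RPKM in control libraries.

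Among the proteins that crosslink or bundle filaments, Flna and Actn4 rose. Flna, the filamin A gene on the X chromosome, measured 16.2, 12.9 and 32 RPKM in dKO, against 6.8, 8.25 and 6.48 RPKM in control libraries. Actn4, the non-muscle alpha-actinin of higher abundance here, measured 79, 77.4 and 105 RPKM in dKO, against 47.2, 52.5 and 52.1 RPKM in control libraries. Neither overlapped between groups, and the log2 changes were 1.29 ± 0.30 (SE) for Flna and 0.76 ± 0.16 (SE) for Actn4, with limma adjusted p of 0.0244 and 0.0154. Actn1, the other non-muscle alpha-actinin, overlapped, with 14.7, 13.3 and 20 RPKM in dKO and 10.3, 13.7 and 12.3 RPKM in control libraries (limma adjusted p = 0.152). Actn1 made up 15.5% ± 0.703 of the pair in dKO and 19.2% ± 1.38 in control libraries (SD, n = 3 each). Fscn1, which bundles filaments in cell protrusions, did not overlap between groups at 3.29 to 4.43 RPKM in dKO and 2.21 to 2.94 RPKM in control libraries, with a limma adjusted p of 0.0658. Vil1, a protein of microvilli, was not tested, at 0.161 to 0.408 RPKM in dKO and 0.0766 to 0.332 RPKM in control libraries. The call of Flna was lost without control replicate 1 (limma adjusted p = 0.088) or 3 (0.0724) and with no filter on low values (0.0502), in a range of 0.0155 to 0.088. That of Actn4 was lost without control replicate 1 (0.0619) and after median-ratio scaling (0.0569), in a range of 0.0149 to 0.0619. Annotated transcripts of Actn4 and Capn12 overlap, as do those of Vcl and Ap3m1, so reads there may belong to either gene.

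Of the 10 focal adhesion genes, 5 rose (50%, against 17.8% of all tested genes) and 5 were not called. After median-ratio scaling, without dKO replicate 3 or without control replicate 3, 1 of the 10, Sorbs2, was called. That is close to the share of all tested genes called higher there, 7.89%, 9.1% and 8.59% in the same order. Sorbs2, an adaptor of the vinexin family that joins vinculin to signalling proteins, had the smallest p of all members. It measured 55.7, 64.3 and 79.7 RPKM in dKO, against 14.2, 12.1 and 15.5 RPKM in control libraries. Each dKO library was far above the control range, the mean was 4.78-fold higher, and the log2 change was 2.17 ± 0.16 (SE) and limma gave an adjusted p of 0.000364. Its relative Sorbs3, the vinexin gene, overlapped at 7.12, 8.96 and 10.9 RPKM in dKO and 4.79, 7.64 and 6.41 RPKM in control libraries (limma adjusted p = 0.116).

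The core adhesion proteins moved by less. Tln1, which activates integrins and binds actin, measured 17.9, 17.1 and 24.4 RPKM in dKO, against 11.7, 13.4 and 12.1 RPKM in control libraries. Vcl, which reinforces the talin link under tension, measured 17, 16.2 and 20.4 RPKM in dKO, against 11.5, 12.3 and 12.1 RPKM in control libraries. Zyx, a protein recruited to filaments under strain, measured 12.2, 14.3 and 16.9 RPKM in dKO, against 10.6, 8.14 and 8.38 RPKM in control libraries. None of the 3 overlapped between groups, and their log2 changes were 0.62 ± 0.15 for Tln1, 0.54 ± 0.13 for Vcl and 0.62 ± 0.16 (SE) for Zyx, with limma adjusted p of 0.0263, 0.0218 and 0.0273. Pdlim1, a PDZ and LIM domain protein that binds alpha-actinin, measured 10.2, 7.95 and 15.3 RPKM in dKO, against 5.52, 7.21 and 4.5 RPKM in control libraries. The groups were separated narrowly, by dKO replicate 2 and control replicate 2, with a log2 change of 0.82 ± 0.23 (SE) and a limma adjusted p of 0.0419.

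These 4 calls depended on the scaling, on single libraries and, for Tln1, Zyx and Pdlim1, on the filter. All 4 were lost after median-ratio scaling, with limma adjusted p of 0.0765 for Tln1, 0.0979 for Vcl, 0.149 for Zyx and 0.0877 for Pdlim1, and under quantile normalization, with 0.0841 for Tln1, 0.0875 for Vcl, 0.136 for Zyx and 0.0984 for Pdlim1. With no filter on low values the adjusted p was 0.0528 for Tln1, 0.0547 for Zyx and 0.0822 for Pdlim1. Without dKO replicate 3 the adjusted p was 0.0517 for Tln1, 0.0507 for Vcl, 0.0782 for Zyx and 0.106 for Pdlim1. Without control replicate 3 it was 0.0802, 0.067, 0.0879 and 0.125 in the same order of genes, and without control replicate 1 it was 0.0864 for Tln1, 0.0729 for Vcl and 0.12 for Pdlim1. Without dKO replicate 1 Vcl (0.0535) and Pdlim1 (0.0855) were lost, and Zyx was lost without dKO replicate 2 (0.0577) or control replicate 2 (0.0517). Over the 14 alternatives the adjusted p ran from 0.0253 to 0.0864 for Tln1, from 0.0212 to 0.0979 for Vcl, from 0.0263 to 0.149 for Zyx and from 0.027 to 0.125 for Pdlim1.

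Among the adhesion genes not called, Pdlim7 did not overlap between groups, with 6.18, 4.73 and 7.23 RPKM in dKO and 3.69, 1.2 and 3.88 RPKM in control libraries (limma adjusted p = 0.071). Tln2, the scarce second talin, stood at 1.35 ± 0.279 RPKM in dKO and 0.863 ± 0.151 RPKM in control and made up 6.41% ± 0.953 of the talins in dKO and 6.50% ± 0.822 in control libraries (SD, n = 3 each). Vasp, which speeds filament elongation, overlapped, with 10.8 ± 2.18 RPKM in dKO and 7.29 ± 2.06 RPKM in control (limma adjusted p = 0.0956, and 0.0261 without control replicate 2, range 0.0261 to 0.303). Pxn, the scaffold paxillin, stood at 16, 15.1 and 19.1 RPKM in dKO and 15.8, 16.1 and 14.2 RPKM in control libraries. Its log2 change of 0.11 ± 0.13 (SE) was within the spread of the libraries and was -0.16 after median-ratio scaling.

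Of the genes for filament turnover, Gsn rose. Gelsolin, its product, severs and caps filaments when calcium rises. Gsn measured 21.2, 28.6 and 10.8 RPKM in dKO, against 5.94, 4.54 and 5.17 RPKM in control libraries. All dKO libraries lay above the controls, the mean was 3.87-fold higher, and the log2 change was 1.68 ± 0.31 (SE) and limma gave an adjusted p of 0.0125. Cfl1, the severing protein cofilin, measured 75.1, 73 and 115 RPKM in dKO, against 47.1, 67.4 and 47.1 RPKM in control libraries. The groups did not overlap and the log2 change of 0.68 ± 0.22 (SE) missed the threshold (limma adjusted p = 0.0603, and 0.029 without control replicate 2, range 0.029 to 0.188). Pfn1, the monomer-binding profilin and the second most abundant member, stood at 204 ± 46.4 RPKM in dKO and 160 ± 28.3 RPKM in control, with overlap (SD, n = 3 each; limma adjusted p = 0.267). Capg, a capping protein of macrophages and some epithelia, was low, at 1.43 to 3.81 RPKM in dKO and 1.07 to 2 RPKM in control libraries (limma adjusted p = 0.264).

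Within the family that ties filaments to the membrane, Ezr rose and Rdx and Msn were not called. Ezr, the ezrin gene, measured 9.48, 8.37 and 19 RPKM in dKO, against 3.29, 3.56 and 4.7 RPKM in control libraries. It did not overlap between groups, with a log2 change of 1.38 ± 0.28 (SE) and a limma adjusted p of 0.0154, which was 0.0647 without control replicate 1 (range 0.0021 to 0.0647). Rdx, the radixin gene and the main family member in these livers, was the steadiest of all, at 70.9, 73.5 and 74.7 RPKM in dKO and 72.8, 67 and 70 RPKM in control libraries. Its log2 change was 0.06 ± 0.13 (SE) and -0.22 after median-ratio scaling, neither called. Msn, the moesin gene, overlapped widely, at 18.8 ± 4.79 RPKM in dKO and 16.0 ± 3.94 RPKM in control (SD, n = 3 each), and its log2 change of 0.22 was -0.05 after median-ratio scaling. Ezrin made up 9.66%, 8.67% and 16.2% of the family sum in dKO, against 3.54%, 3.96% and 5.44% in control libraries, and radixin still held most of it, with 72.2%, 76.2% and 63.4% in dKO and 78.3%, 74.4% and 81% in control libraries.

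**Figure D5:**
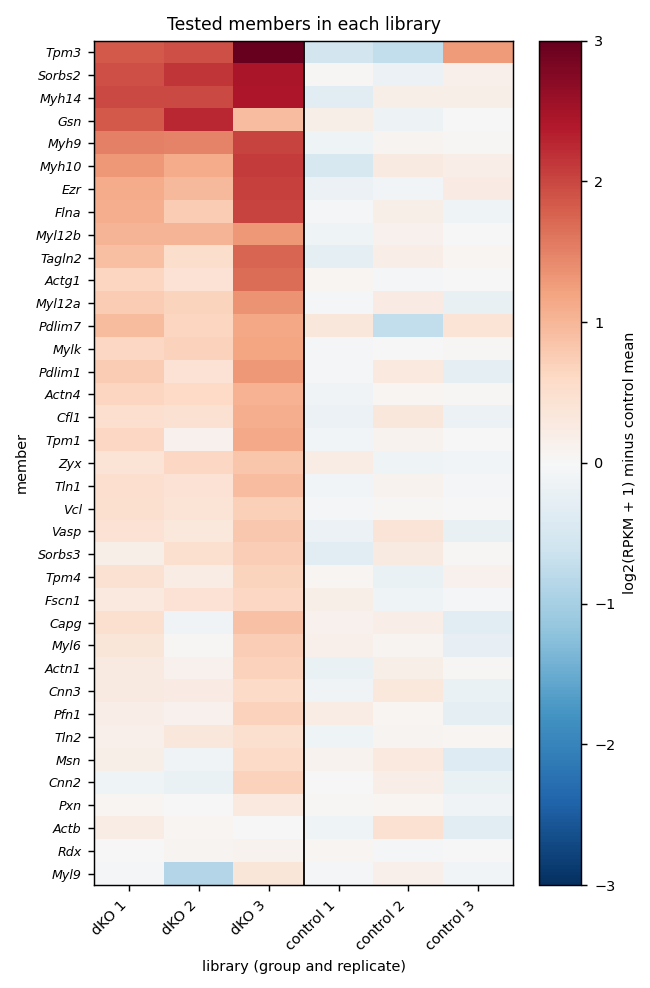
Each tested member in each library as log2(RPKM + 1) minus its control mean, red above and blue below, with the dKO libraries left of the control libraries and genes ordered by their log2 change. The column of dKO replicate 3 is the reddest, with 35 of 37 members highest there among the dKO libraries, the exceptions being Gsn and Actb, and control replicate 3 is red for Tpm3.

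Replicate 3 of the dKO group held the highest dKO value in 35 of the 37 tested members (94.6%), against 61.8% of all tested genes. The median ratio of that library to the mean of the other dKO libraries was 1.43 for the members and 1.14 for all tested genes. The ratio was above 2 for 5 members, Tpm3 (2.72), Actg1 (2.33), Flna (2.20), Ezr (2.13) and Tagln2 (2.07). Gsn went the other way, with a ratio of 0.435, and Actb stood at 0.919. Without dKO replicate 3, 11 of the 16 calls were kept, among them Gsn, the 3 myosin heavy chains and Sorbs2, and Actg1 was gained.

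Markers of other liver cells moved with these genes in part. Of 9 cholangiocyte markers 5 were tested and all 5 were called higher. The sum of all 9 was 339 to 980 RPKM in dKO and 27.9 to 79.5 RPKM in control libraries, highest in dKO replicate 3 and, among controls, in control replicate 3. Spp1, the osteopontin gene, supplied most of that sum in each library, with 454, 306 and 910 RPKM in dKO, against 20.9, 18.7 and 64.7 RPKM in control libraries. Epcam, a surface protein of cholangiocytes, measured 4.57, 3.73 and 12 RPKM in dKO, against 0.112, 0.154 and 0.811 RPKM in control libraries. Of 7 smooth muscle markers 4 were tested and 0 were called by limma (1 higher at an unadjusted p under 0.05), with sums of 10.6 to 21.2 RPKM in dKO and 9.20 to 10.3 RPKM in control libraries. Acta2, the smooth muscle actin, stood at 0.685 to 3.73 RPKM in dKO and 0.67 to 1.78 RPKM in control libraries. Of 12 stellate cell and fibroblast markers 11 were tested, 1 was higher and 1 lower. At an unadjusted limma p under 0.05, 4 were higher and 1 lower, and 9 of the 11 differences were positive. The sums were 203 to 342 RPKM in dKO and 189 to 206 RPKM in control libraries. Dcn, at 106 to 151 RPKM in dKO and 112 to 142 RPKM in control libraries, supplied much of them, so the sums say little of the scarcer markers. Of 8 macrophage markers 1 was higher and 0 lower (sums 181 to 265 RPKM in dKO and 110 to 226 RPKM in control). At an unadjusted limma p under 0.05, 3 macrophage markers were higher and 1 lower. Of 8 endothelial markers 0 were called by limma, with 0 at an unadjusted p under 0.05 (100 to 114 RPKM in dKO and 93.7 to 97.6 RPKM in control). Of 8 hepatocyte markers 0 were higher and 3 lower, where 2.17% of all tested genes were lower, and all 8 differences were negative. The sums were 39800 to 46700 RPKM in dKO and 47000 to 60900 RPKM in control libraries. Alb supplied most of them in each library, and its own values overlapped between groups (limma adjusted p = 0.527). No marker of these lists was at 0 in all libraries. The part of these cell types in the changes of the members was not tested.

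The lists of other leukocyte, mesothelial, platelet and erythroid markers had 0 called genes. At an unadjusted limma p under 0.05, 1 leukocyte marker was lower and none of the other markers differed. Their sums overlapped between groups, for leukocytes at 42.7 to 78.8 RPKM in dKO and 54.2 to 112 RPKM in control libraries, for platelets at 3.97 to 6.98 RPKM in dKO and 2.47 to 4.67 RPKM in control libraries, for mesothelium at 2.44 to 4.17 RPKM in dKO and 3.65 to 5.15 RPKM in control libraries, and for erythroid cells at 98.5 to 168 RPKM in dKO and 114 to 405 RPKM in control libraries.

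Other genes of the actin system, taken as lists by function, moved mostly in the same direction, as did 8420 of all 11062 tested genes. Positive differences numbered 24 of 27 adhesion adaptors and kinases, 33 of 33 monomer and filament binding proteins, 13 of 14 other myosins and 15 of 19 nucleators. The median log2 changes of these lists were 0.53, 0.46, 0.36 and 0.31 in the same order, against 0.23 for all tested genes. After median-ratio scaling they were 0.28, 0.26, 0.14 and 0.03, against -0.01, so the signs depend in part on the scaling. In each of 4 lists 0 were called lower (for the nucleators, 1 after median-ratio scaling), where 2.17% of all tested genes were. Of 27 tested focal adhesion adaptors and kinases outside the members, 14 rose (51.9%), and the count was 7 without control replicate 1 or under quantile normalization and 9 without control replicate 3. The share of all tested genes called higher also fell, from 17.8% to 6.84% without control replicate 1, 6.57% under quantile normalization and 8.59% without control replicate 3. Tes, a LIM domain partner of zyxin, measured 11.8, 11.6 and 28.7 RPKM in dKO, against 0.897, 0.847 and 1.99 RPKM in control libraries. It was higher in each dKO library than in any control, with a log2 change of 2.95 ± 0.36 (SE) and a limma adjusted p of 0.00352. Lims2, a PINCH adaptor of integrin-linked kinase, had a log2 change of 1.40 ± 0.17 (SE; limma adjusted p = 0.00234).

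Of 33 tested monomer and filament binding proteins 10 rose (30.3%), and 6 did so without control replicate 1 or 3, where 6.84% and 8.59% of all tested genes did. Pls1, the microvillus bundling protein plastin 1, measured 27.3, 22.8 and 39.3 RPKM in dKO, against 3.68, 9.55 and 6.92 RPKM in control libraries (log2 change 2.04 ± 0.31, limma adjusted p = 0.00777). Lasp1, an actin-binding LIM protein, had a log2 change of 0.89 ± 0.14 (SE; limma adjusted p = 0.00628). Of 14 tested myosins of other classes 6 rose (42.9%), of which Myo9b, Myo1c and Myo5c had the smallest adjusted p, with log2 changes of 0.95, 0.74 and 1.67, and 3 did so without control replicate 1, control replicate 3 or dKO replicate 3 and under quantile normalization. Of 19 tested Arp2/3 subunits and nucleators, which start new filaments, 3 rose (15.8%), close to the 17.8% of all tested genes, namely Inf2, Cttn and Wasf2, with 0 without control replicate 1, control replicate 3, dKO replicate 1 or dKO replicate 3 and 7 without control replicate 2. After quantile normalization 0 of these nucleator genes were higher and 2 lower, where 6.57% of all tested genes were higher and 5.01% lower. The share of all tested genes called higher was 10.5% without dKO replicate 1, 9.10% without dKO replicate 3 and 17.9% without control replicate 2.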

How the data were processed

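Polyadenylated liver RNA was sequenced in 3 dKO and 3 control libraries. Alignment, counting and RPKM were the authors' work before the files were deposited; they used mm9, as the submitters' processing notes list it, and the aligner, counter and annotation are not given in the sources used here. The files name no unit. The deposited values were read as RPKM, since 72.7% to 79.5% of low values of single-transcript genes lay within 0.15 of a whole read at the best-fitting depth (30% if evenly spread, though the depth was fitted to these values), which also gave the depth estimates.

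With a pseudocount of 1, log2 values of all genes averaging 1 RPKM or more were fitted with limma 3.58.1 in R 4.3.3, with trend and robust moderation and no block, and a call needed a p under 0.05 after Benjamini-Hochberg adjustment over all genes. The fit was tested on simulated data. Near-identical transcripts were found with blastn 2.17.0 in GENCODE M21 (at least 95% identity over 300 bases). Python 3.11.15 did the rest. The text names every member, with those called or most abundant in their role group in full, up to 3 called genes of smallest p per pathway list, and counts for marker lists. Epcam, Spp1, Acta2 and Dcn were named after their values were seen. The members and lists were chosen with earlier results of these data known. Alternatives were a pseudocount of 0.1, 2 other filters, 3 scalings, no robust moderation, a replicate block, an adjusted p under 0.01 and each library left out; counts of the lists under these were added after seeing the data. Comparison of protein sequences was not done. Some genes of the pathway lists and 1 list are not reported here.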

Additional observations from a re-analysis of the deposited data

How the results depend on the processing

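Under 15 alternatives the count of members called higher ranged from 4 to 18, with 16 as reported, and no member was called lower under any of them. It was 10 after median-ratio scaling, 10 under quantile normalization and 4 at an adjusted p under 0.01, and ran from 8 to 17 with 1 library left out. All tested genes called higher numbered 873 after median-ratio scaling, 727 under quantile normalization and 490 at an adjusted p under 0.01, and 763 to 1992 with 1 library left out. Those called lower numbered 614, 554 and 49 in the same order, 145 without a filter, and 90 to 241 with 1 library left out. The median log2 change of the members stayed between 0.35 and 0.71. The sign of the log2 change turned after median-ratio scaling for Actb (-0.19), Cnn2 (-0.12), Pxn (-0.16), Msn (-0.05) and Rdx (-0.22), and under quantile normalization for Cnn2 (-0.15), Tln2 (-0.07) and Pxn (-0.10). With 1 library left out it ran from -0.45 to 0.17 for Myl9 (positive without dKO replicate 2), from -0.16 to 0.29 for Cnn2 (negative without dKO replicate 3) and from -0.06 to 0.33 for Actb (negative without control replicate 3), and none of these was called. The cause was not tested.

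With the replicate number as a block, 18 members were higher (48.6%), with Actg1, Tpm3 and Pdlim7 gained and Pdlim1 lost. Of all tested genes 1513 were higher with the block (13.7%), against 1965 without it (17.8%). The labels do not say whether same-numbered libraries were paired. Deviations of same-numbered libraries from their group means correlated at -0.08, -0.10 and -0.01 across genes. With 3 libraries per group, such values cannot decide whether the libraries were paired. Depth was estimated and not given, and the 3 members under 1 RPKM were not tested.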
